A study of Mus musculus with 20 samples.

Results

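Adipose stromal cells in the cell cycle were examined in single-cell RNA profiles of the stromal vascular fraction of interscapular brown fat (iBAT) from mice. The cells were chosen from the lineage marker negative (Lin-) libraries by their own counts. Each had at least 500 detected genes, under 15000 counts in total and under 10% mitochondrial counts. The counts of Pdgfra, Col1a1 and Dcn summed to at least 5, those of Pecam1, Cdh5 and Ptprc to under 1, and Lrrc15 was under 0.5, which together define the stromal gate. A stromal cell was called cycling where Top2a, Birc5, Mki67, Cenpf, Cdk1, Ube2c, Pclaf and Tk1 summed to at least 4, and non-cycling where the same 8 genes summed to under 1. The gate took 37616 stromal cells of 60538 Lin- cells with enough genes, and 1979 of them (5.26%) were cycling and 34415 non-cycling. Non-cycling cells of the same library served as the comparison.

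A dividing cell copies its DNA in S phase under E2F transcription factors, which are released when D-type cyclins with Cdk4 or Cdk6 inactivate the retinoblastoma proteins. It then turns on a second set of genes for chromosome condensation, spindle assembly and cell division in G2 and M phase, while Cdk inhibitors hold resting cells out of the cycle. Adipose stromal cells (ASCs) are PDGFRA-positive fibroblast-like cells that include adipocyte progenitors, and in brown fat they can divide and form new brown adipocytes during cold exposure. In iBAT they are described as ASC1 (marked by Col5a3, Cxcl14 and Bmper), ASC2 (Pi16 and Dpp4) and ASC3 (Gdf10 and C7).

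The series held 20 libraries, a Lin- and a lineage positive (Lin+) library for each of 10 pools. A pool joined the tissue of 3 to 4 animals and counts as 1 replicate. The male C57 groups stayed at room temperature (RT, labelled 24 °C), were held at 6 °C for 4 days (COLD), or were infused with CL, a β3-adrenergic receptor agonist, at 0.75 nmol per hour for 4 days, with 2 pools each. Female mice carrying floxed Adrb1, the β1-adrenergic receptor gene, on both alleles were Pdgfra-CreER negative (WT) or Pdgfra-CreER +/- (KO), were all given tamoxifen, and contributed 1 RT and 1 COLD pool of each genotype. Cre recombination in the KO was thus directed to Pdgfra-expressing cells. In the Adrb1 line the RT libraries were made with a later kit (v3) than the COLD libraries (v2), so kit and temperature cannot be told apart within that line, and line and sex also go together.

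In stromal cells of the Adrb1 line, Adrb1 was at 1.33 counts per 1e+06 counts (CPM) in the WT RT pool and 3.77 in the WT COLD pool, against 0.524 and 0.534 in the KO pools. In C57 it was at 1.86 and 3.81 CPM at RT, 7.76 and 7.68 in COLD and 3.28 and 2.33 in CL, the COLD pools having 14.0 and 12.6 in cycling against 5.66 and 6.52 in non-cycling cells. In the WT COLD pool 19 of 403 cycling cells had an Adrb1 count, and in the KO COLD pool 0 of 144 did. Cycling cells were rare at RT (30 cells in 4 libraries), so gene-level comparisons used the 6 COLD and CL libraries, which held at least 20 cycling cells each and 1949 in all. Between Lin- libraries, 0 to 139 cell barcodes were shared by a pair (at most 1.71%), and 1 of 45 pairs shared a barcode among the cycling cells.

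The label was checked against markers that the gate did not use. A count of Cd34, a surface marker of adipose progenitors, was found in 27.9%, 33.7%, 30.0% and 37.5% of cycling cells of the COLD libraries (C57 replicates 1 and 2, WT, KO) against 59.1%, 58.5%, 62.0% and 66.6% of non-cycling cells, lower in each. In CL it was found in 56.6% and 68.9% against 60.8% and 73.7%. Over all 6 libraries Ly6a (Sca1) was found in 52.1% to 78.7% against 65.9% to 83.1%. Defining markers of other cell types were near 0. The endothelial receptor gene Kdr was detected in 0% to 2.78% of cycling cells, the pericyte gene Rgs5 in 1.39% to 3.28%, and the myeloid adaptor gene Tyrobp in 0% to 1.49%. Summed CPM of 12 immune markers was 6.70 to 48.3 in cycling cells and 16.1 to 49.6 in non-cycling cells, that of 8 endothelial markers 37.8 to 97.3 and 74.1 to 201, and that of 6 mural markers 7.66 to 189 and 79.8 to 127. In the cold libraries none of the immune, endothelial or mural markers tested was called higher in cycling cells. Their largest log2 fold changes were 0.51, 0.29 and 0.48. The mural gene Notch3 had log2 differences of -0.30, 0.04, 0.94 and 0.95 (C57 replicates 1 and 2, WT, KO). The mural sum of 189 belonged to CL replicate 1, where non-cycling cells had 91.4. In CL the mural gene Rgs5 was called higher in cycling cells, with log2 differences of 1.52 in replicate 1 and -2.68 in replicate 2. The immune sum of 48.3 belonged to C57 COLD replicate 2, where non-cycling cells had 31.5.

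The promoters of some cycle genes are shown because the G2/M and G1/S lists differ in how often certain motifs occur near their start sites. The genes printed were picked from the named members of these lists because the stretch holds the motifs. These were a CHR element and a CCAAT box for G2/M genes and an E2F motif for G1/S genes. They are therefore no sample of the lists. The sequences are from RefSeq on GRCm38.p6 and run from 200 bases to 1 base before the annotated start, 5′ to 3′ on the gene's strand. Capitals mark a CHR element, a CCAAT box or an E2F motif. The CHR element was spelled TTTGAA, or with C at its middle as TTCGAA. The E2F motif was spelled TTTCCCGC, with TTTGGCGC as a second form and TTTCGCGC as a further form. Each was searched on both strands, so a CHR element or CCAAT box on the other strand appears in the capitals as its reverse complement. In Mcm5, a subunit of the replicative DNA helicase, 2 E2F matches overlap on opposite strands, and there only the E2F motif is in capitals although CCAAT also occurs in the stretch.
Prc1 (spindle midzone protein; chr7:80294276-80294475, + strand): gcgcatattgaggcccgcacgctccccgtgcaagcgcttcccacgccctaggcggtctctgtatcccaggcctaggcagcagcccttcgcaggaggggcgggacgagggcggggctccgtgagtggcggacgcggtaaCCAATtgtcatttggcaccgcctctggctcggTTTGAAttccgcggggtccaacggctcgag
Ckap2l (spindle-associated protein; chr2:129297213-129297412, − strand): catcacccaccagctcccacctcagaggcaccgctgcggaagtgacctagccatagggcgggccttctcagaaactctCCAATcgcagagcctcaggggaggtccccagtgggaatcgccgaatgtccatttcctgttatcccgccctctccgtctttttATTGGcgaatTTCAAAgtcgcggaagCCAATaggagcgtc
Ccnb2 (cyclin B2; chr9:70421555-70421754, − strand): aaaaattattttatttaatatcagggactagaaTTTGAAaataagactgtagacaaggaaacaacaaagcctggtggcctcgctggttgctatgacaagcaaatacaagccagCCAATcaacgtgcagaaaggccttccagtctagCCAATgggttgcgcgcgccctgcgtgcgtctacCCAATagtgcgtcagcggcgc
Mcm5 (chr8:75109309-75109508, + strand): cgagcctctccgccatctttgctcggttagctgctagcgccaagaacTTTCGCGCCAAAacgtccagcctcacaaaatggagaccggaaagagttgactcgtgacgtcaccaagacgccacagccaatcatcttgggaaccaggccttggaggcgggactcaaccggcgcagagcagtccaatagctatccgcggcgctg

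Of the 48 listed G2/M and mitosis genes, 40 matched a RefSeq promoter (250 bases before to 50 after the start), and 77.5% of these held a CHR element, 80.0% a CCAAT box and 67.5% both. Among 27025 genes with a promoter in the same table, 21.7%, 41.1% and 8.61% did. Of 31 matched G1/S and DNA replication genes 38.7% held an E2F motif, against 2.12% of all genes and 5.00% of the G2/M genes, while 16.1% held a CHR element and 58.1% a CCAAT box. Other lists matched fewer genes. An E2F motif was held by 21.4% of 14 ribosome biogenesis genes and 13.3% of 15 oxidative phosphorylation and citrate cycle genes. A CCAAT box was held by 60% of 10 immediate early and stress genes. These matches describe letters in a window and are not evidence that a factor binds there.

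Cycling cells made up a larger share of stromal cells after cold exposure. In COLD they were 720 of 5763 stromal cells (12.5%, 95% exact binomial interval 11.7% to 13.4%) and 377 of 4551 (8.28%, 7.50% to 9.12%) in C57 replicates 1 and 2, 403 of 4449 (9.06%, 8.23% to 9.94%) in the WT pool and 144 of 2771 (5.20%, 4.40% to 6.09%) in the KO pool. At RT they were 12 of 3426 (0.350%), 0 of 2339, 15 of 3445 (0.435%) and 3 of 1491 (0.201%) in the same order. A count of 0 of 2339 allows a share of up to 0.128%. All intervals and limits cover counting error only.

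**Figure D1:**
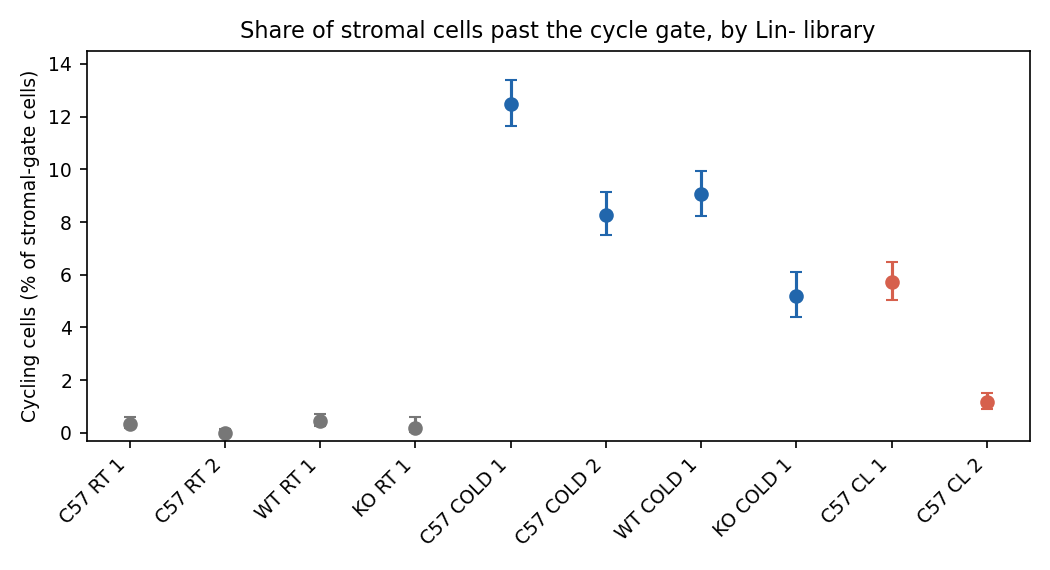
Percent of stromal-gate cells past the cycle gate in each Lin- library, by treatment, with 95% exact binomial intervals that cover counting error only. The 4 COLD libraries lie between 5.20% and 12.5% and the 4 RT libraries between 0% and 0.435%, while the CL libraries are at 5.74% and 1.19%.

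No COLD library overlapped an RT library, with means of 8.76% ± 3.00 and 0.247% ± 0.191 (SD, n = 4 libraries each). The difference of 8.51 percentage points had p = 0.0286 by a two-sided exact permutation test, the smallest that 4 against 4 allows, and any left-out library raised the smallest possible p to 0.0571. The test exchanged libraries freely across lines, sexes, genotypes and kits, and a permutation within line and genotype was not run. With each cell thinned to 1500 counts the difference was 8.25 points. The thinned setting, here and below, also lowered the cycle threshold from 4 to 2 and left out shallower cells, 98 to 1158 per library, and at a threshold of 2 without thinning the difference was 10.7 points. Within C57 the means were 10.4% ± 2.98 and 0.175% ± 0.248 (n = 2 each), a difference of 10.2 points with p = 0.333, the smallest that 2 against 2 allows by the exact permutation test, and the same-numbered pools differed by 8.28 and 12.1 points. The WT and KO pools had 1 library each per temperature, so genotypes were not tested.

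In CL, cycling ASCs were fewer than in the same-numbered COLD pool of both replicates. There were 244 of 4254 (5.74%, 5.06% to 6.48%) in replicate 1 and 61 of 5127 (1.19%, 0.911% to 1.53%) in replicate 2, and these intervals do not overlap. The mean of 3.46% ± 3.21 was 3.29 points above RT (exact permutation p = 0.333), the same-numbered pools differing by 5.39 and 1.19 points, and it was 1.01 points above RT with replicate 1 left out and 5.56 with replicate 2 left out. COLD lay 6.93 points above CL, with 6.76 and 7.09 points within same-numbered pools, and the exact permutation p was again 0.333. In the thinned setting, which left out 1158 of the 4254 cells of CL replicate 1, the difference was 5.72 points with an exact permutation p of 0.667, and CL replicate 1 (8.66%) lay above COLD replicate 2 (7.32%). At a threshold of 2 without thinning it was 8.22 points (exact permutation p = 0.333). The limit on Lrrc15 in the stromal gate kept out 141 and 9 further stromal cells past the cycle gate in CL, against 2, 2, 9 and 0 in COLD (C57 replicates 1 and 2, WT, KO), and its part in the CL share was not tested. A sum of Pdgfra, Col1a1 and Dcn under 5 kept out more cells past the cycle gate. These were 764, 180, 99 and 19 in COLD, 235 and 29 in CL, and 5, 9, 6 and 1 at RT. In C57 COLD replicate 1 they outnumbered the 720 members. Their type was not called, and all shares describe only cells that met the stromal minimum.

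The cycle gate was also applied to vascular cells of the same libraries. Endothelial cells (Pecam1 and Cdh5 summing to at least 3) passed it at 0% to 1.15% at RT, 1.08% to 2.61% in COLD, and 5.98% (52 of 869) and 4.23% (6 of 142) in CL. Mural cells passed at 0% at RT, 0% to 1.10% in COLD, and 5.24% and 1.91% in CL. In COLD, stromal cells thus passed the gate more often than either vascular class in each of the 4 libraries, while in CL replicate 2 the stromal share was below both, within the interval of the mural share (0.524% to 4.83%). Vascular cells of CL replicate 1 were shallower, at median totals of 922 (mural) and 1634 (endothelial), and 62 of 286 and 486 of 869 were deep enough for the thinned setting. With its lower threshold these passed at 22.6% and 11.1%, against 8.66% of stromal cells.

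Few members sat close to the threshold. A cycle sum from 4 to under 5, just inside, was found for 50, 21, 24 and 10 cells in the COLD libraries (C57 replicates 1 and 2, WT, KO) and for 23 and 2 in CL, and a sum from 3 to under 4, just outside, for 65, 33, 41 and 11 and for 28 and 4. A sum from 1 to under 3 was found for 295, 188, 292 and 104 cells in COLD and for 95 and 32 in CL. Cells with a sum from 1 to under 4 belong to neither state and were left out of the comparisons. The median sum among the members of these libraries was 11.3 to 22.8. Among the gate genes, which are no finding, Birc5 was counted in 83.6% to 91.8% of members and Mki67 in 57.4% to 81.1%.

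Cycling cells were larger in counts than non-cycling cells of the same library. The median total was 5764 against 2566 in C57 COLD replicate 1 and 10528 against 3401 in the WT COLD pool, and the ratio was 1.75 to 3.10 over the 6 libraries. A cell with more counts reaches any threshold on a sum more easily, so each comparison with non-cycling cells was also made against as many non-cycling cells of matched total (depth matched). In C57 COLD replicate 1 the matched cells stayed below the cycling cells, at a median of 5021 against 5764.

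Cycling was unevenly spread over the ASC subtypes. A cell was called ASC1, ASC2 or ASC3 type by whichever of the 3 marker sums named above was largest and at least 2. In COLD, ASC1-type cells passed the cycle gate at 17.0%, 10.7%, 16.9% and 10.8% (C57 replicates 1 and 2, WT, KO). ASC2-type cells passed at 2.33%, 3.01%, 2.27% and 0.508%, and ASC3-type cells at 1.69% to 2.57%. Among the 3 called types, every cold library had its highest rate in ASC1-type cells. Cells that reached no call passed at 12.5%, 8.41%, 4.33% and 3.68%, and they were 22.8% of the cycling cells in C57 COLD replicate 1.

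In CL the rates were closer to each other, at 7.79% and 1.27% for ASC1-type and 4.29% and 1.32% for ASC2-type cells. The ratio of the ASC1 to the ASC2 rate was 3.56 to 21.3 in COLD and 0.959 and 1.82 in CL, without overlap, with a difference of 2.60 in mean log2 ratio and a two-sided exact permutation p of 0.133, the smallest that 4 against 2 allows. Within C57 the difference was 1.95 with an exact permutation p of 0.333, the smallest for 2 against 2. In the thinned setting the COLD ratios were 3.04, 2.74, 4.23 and 18.6, against 7.32, 3.56, 7.45 and 21.3 otherwise, and those of CL 1.37 and 0.755. The ASC2 rate of C57 COLD replicate 1 was 5.28% there. At RT, 12 of the 30 cycling cells were ASC1 type and 12 ASC2 type.

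**Figure D2:**
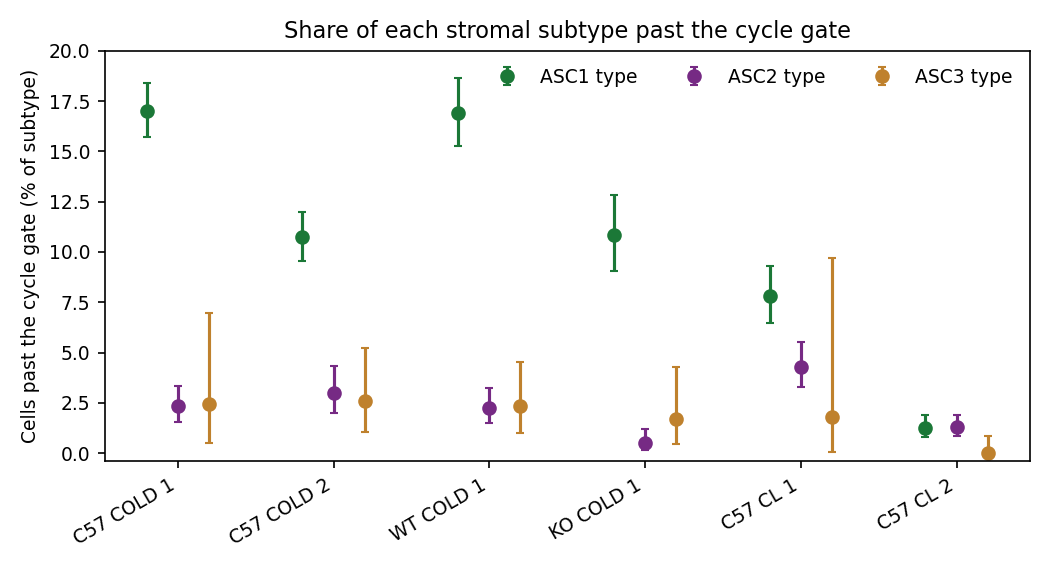
Percent of ASC1-, ASC2- and ASC3-type stromal cells past the cycle gate in each COLD and CL library, with 95% exact binomial intervals for counting error only. Of the 3 types shown, ASC1-type cells lead in every COLD library (10.7% to 17.0%), while in CL replicate 2 ASC1- and ASC2-type cells are at 1.27% and 1.32%.

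Makeup and depth moved with cycling, the makeup least in CL replicate 2. ASC1-type cells were 72.8% of cycling, 49.5% of non-cycling and 76.8% of depth-matched non-cycling cells in C57 COLD replicate 1, and 80.9%, 37.2% and 78.9% in the WT COLD pool. In CL replicate 1 the 3 values were 45.9%, 33.1% and 35.7%, and in CL replicate 2 they were 37.7%, 35.4% and 31.1%. Depth matching also left different makeups in the treatments. ASC2-type cells were 35.7% and 55.7% of the matched non-cycling cells in CL replicates 1 and 2, against 5% and 10.1% in C57 COLD. For this reason gene differences are given from the whole comparison, with the depth-matched value and the value within ASC1-type cells beside it for part of the genes. The call of a type compares sums of Pi16 and Dpp4, Col5a3, Cxcl14 and Bmper, and Gdf10 and C7, so values of these genes within ASC1-type cells are conditioned on the call. Summed counts cannot tell fewer cells with a transcript from fewer transcripts per cell.

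Among members, the balance of phases also varied by library. On the G2/M side, where the mean of the G2/M list exceeded that of the G1/S list, were 53.6%, 64.5%, 68.2% and 66.7% of cycling cells in COLD and 71.3% and 80.3% in CL, and with cells thinned to 1500 counts 55.2% to 67.6% and 70.7% and 78.3%. By another rule, a cell was placed in G2/M where Ccnb1, Cdc20, Plk1, Aurka, Cenpa and Ccnb2 summed to at least 1. COLD then had 67.2% to 83.3% and CL 75.4% and 90.2%, so the groups overlapped. Within same-numbered C57 pools CL was above COLD by both rules, at 75.4% against 67.2% and 90.2% against 76.4% by the second. C57 COLD replicate 1 was the lowest by either rule.

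In the cold libraries, summed counts of cycling and non-cycling cells were compared within library over 12727 genes. At an adjusted p under 0.05 (edgeR's quasi-likelihood test, Benjamini-Hochberg adjustment), 6035 genes (47.4%) differed, 3184 higher (25.0%) and 2851 lower (22.4%) in cycling cells, and 35.6% and 43.3% of genes differed when depth matched and within ASC1-type cells. Counts of list members below are to be read against these shares. The median log2 fold change over all genes was 0.01.

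Cycle genes outside the gate are described first, and since they are expressed together with the gate genes their difference is no separate support. All 40 G1/S and DNA replication genes, all 48 G2/M genes and all 26 chromatin and tubulin genes were higher, with median log2 fold changes of 2.93, 5.79 and 2.09. Mcm5 was at 111, 102, 77.6 and 80.3 CPM in cycling cells of the COLD libraries (C57 replicates 1 and 2, WT and KO, the order used throughout) and 10.1, 5.49, 6.70 and 8.38 in non-cycling cells. Ccna2, the cyclin of S and G2 phase, was at 206, 218, 188 and 205 CPM against 2.30, 1.61, 3.17 and 1.31. The histone variant gene H2afz was at 2804, 2859, 2796 and 2624 CPM against 145, 96.8, 139 and 124. Cycling and non-cycling libraries did not overlap for these 3 genes, as for 34.8% of all genes tested. Rrm2, the regulated subunit of ribonucleotide reductase, had the largest difference of the G1/S list (5.33 on the log2 scale), and Hmmr, a spindle assembly factor, the largest of those with a mean of at least 50 CPM (7.05 ± 0.19, SE). Prc1 (6.55), Ckap2l (6.54), Cenpe (6.41), Pbk (6.32), Tpx2 (6.23) and Cdc20 (5.97) were also among the 10 largest.

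**Figure D3:**
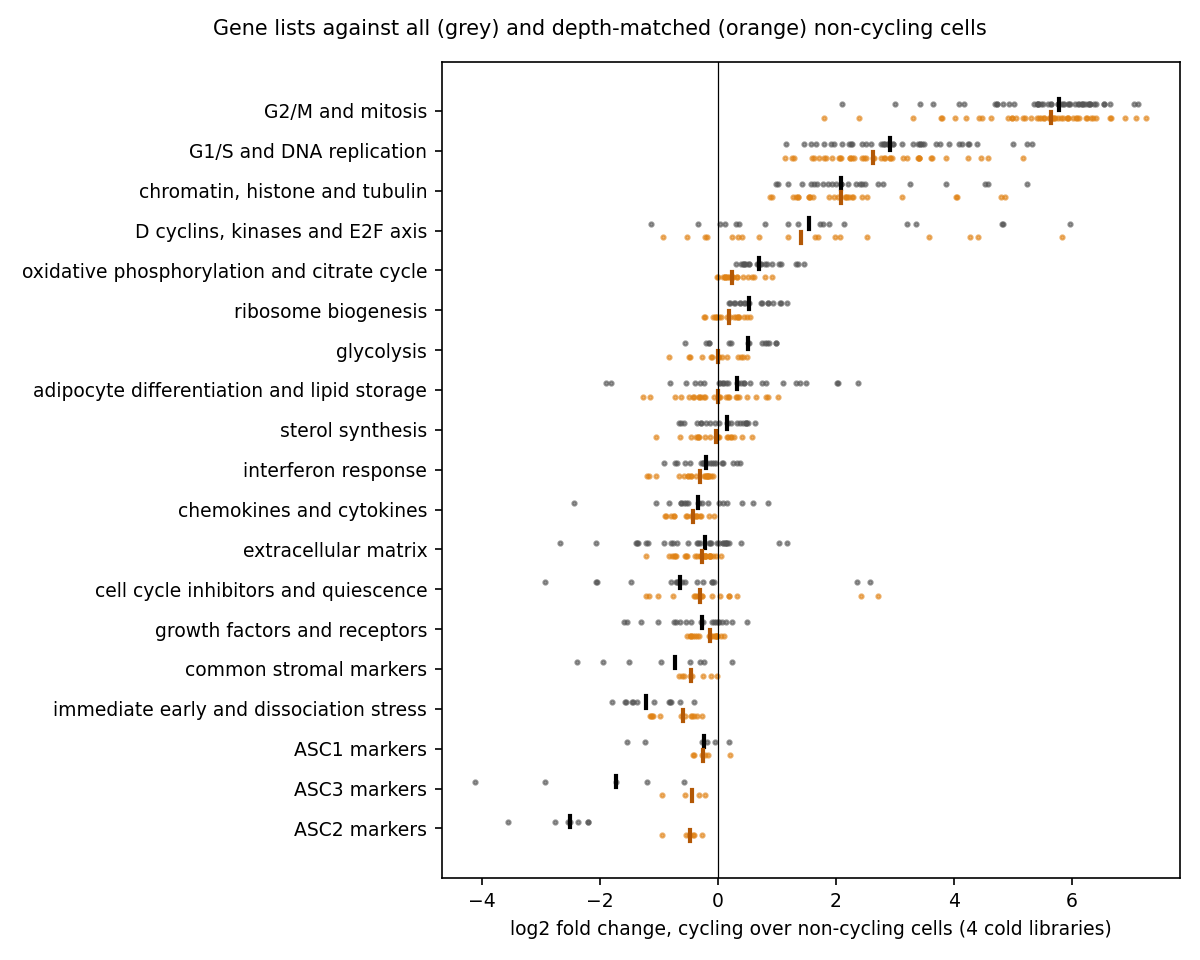
Log2 fold change of cycling against non-cycling stromal cells in the 4 COLD libraries for the genes of each list, against all (grey) and depth-matched (orange) non-cycling cells. Each point is a gene, the short bar is the list median and the long line marks no difference. Cycle lists lie far to the right, at medians of 2.09 to 5.79, and the ASC2, ASC3 and immediate early lists have medians of -2.52, -1.73 and -1.23 against all non-cycling cells, and -0.48, -0.44 and -0.60 depth matched.

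Of 18 genes on the list of cell cycle inhibitors and quiescence genes, 2 were higher and 12 lower, with a median of -0.64 (-0.30 depth matched). The 2 that rose, Cdkn2c and Cdkn2d, encode the INK4 inhibitors p18 and p19, which bind Cdk4 and Cdk6. Cdkn2c was at 154, 155, 136 and 131 CPM in cycling cells and 30.1, 31.1, 22.4 and 18.3 in non-cycling cells, without overlap (log2 fold change 2.58 ± 0.10, given ± SE here and below, adjusted p = 1.09e-08 by edgeR). Cdkn2d had 2.37. Against depth-matched cells the differences were 2.43 and 2.72.

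The other inhibitors went differently. Cdkn1c, which encodes p57, was at 42.6, 44.7, 27.9 and 28.6 CPM against 96.7, 109, 113 and 101, also without overlap (-1.47 ± 0.14, adjusted p = 9.99e-06 by edgeR, and -0.39 depth matched). Cdkn1a (p21) and Cdkn1b (p27) did not pass the test, at -0.07 and -0.25, although Cdkn1a was higher against depth-matched cells (0.32, adjusted p = 0.00698 by edgeR). Txnip, a thioredoxin inhibitor repressed by growth signals, fell (-2.06, -1.02 depth matched), as did Klf2 (-2.05, -1.17 depth matched) and Klf4 (-2.93, -1.22 depth matched), Krüppel-like factors associated with quiescence. Klf4 was at 55.7, 88.5, 63.1 and 53.8 CPM in cycling cells against 414, 557, 523 and 605 in non-cycling cells.

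D cyclins differed among themselves. Ccnd1 was at 7.35, 10.1, 5.53 and 3.40 CPM in cycling cells and 16.6, 15.6, 15.2 and 17.8 in non-cycling cells, lower in each library (-1.13 ± 0.20, adjusted p = 9.03e-04 by edgeR, -0.94 depth matched). Ccnd3 rose by 0.36 and Ccnd2 by 0.31, but Ccnd2 was at -0.19 against depth-matched cells. Cdk4, their kinase partner, was at 528, 414, 390.5 and 379.9 CPM against 230.3, 189, 179.8 and 186 (1.19 ± 0.08, 0.70 depth matched). Tfdp1, the E2F dimerization partner, rose by 1.35, and Foxm1 and Mybl2, transcription factors of the G2/M programme, by 4.83 and 4.81. Myc was lower in cycling cells, at -0.34 (adjusted p = 0.00852 by edgeR). In all, 14 of the 18 tested members of the D cyclin, kinase and E2F list rose and 2 fell.

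Growth and energy genes were higher as groups, by less than the cycle genes. Of 18 ribosome biogenesis genes 14 rose and none fell (median 0.52, and 0.18 with 8 higher and 1 lower depth matched). Npm1, a nucleolar chaperone, was at 1971, 1321, 1285 and 927 CPM against 786, 647, 657 and 609 (1.05, 0.27 depth matched), and Ncl and Nop56 had 1.17 and 0.93. Of 14 glycolysis genes 8 rose and 1 fell (median 0.52, and 0.01 with 4 higher and 3 lower depth matched). Gapdh had 0.87 and Pgk1 0.98, while Ldha, the lactate dehydrogenase subunit, had 0.80 and only 0.06 against depth-matched cells, where it no longer passed (adjusted p = 0.599 by edgeR).

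All 20 genes of oxidative phosphorylation and the citrate cycle rose, with a median of 0.70, and 11 rose and none fell depth matched (median 0.24). Cox5a, a subunit of cytochrome c oxidase, was at 578, 467, 380.2 and 269 CPM in cycling cells and 139, 155, 174 and 159 in non-cycling cells, without overlap (1.46 ± 0.17, adjusted p = 6.21e-05 by edgeR, 0.62 depth matched). Cycs (cytochrome c) and Idh3a (isocitrate dehydrogenase) had 1.36 and 1.32, and citrate synthase Cs 0.69.

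Adipocyte genes moved both ways, with 13 of 28 higher and 6 lower, a median of 0.33, and 6 higher and 9 lower depth matched (median -0.01). Fabp4, a fatty acid carrier of adipocytes, was at 6139, 4322, 1895 and 1452 CPM against 1522, 1340, 1030 and 1073 (1.33 ± 0.22), but at 0.04 against depth-matched cells, and Fabp4 and Car3 were the genes the authors used to estimate and remove free RNA. Fabp5 had 2.37 (1.02 depth matched), at 1161, 539.8, 171 and 40.9 CPM against 129, 66.2, 43.7 and 33.6. The C57 pools lay above the Adrb1-line pools for Fabp5, and the KO pool differed least. For some adipocyte genes the KO pool went the other way, with log2 differences of -1.82 for Car3, -0.93 for Adipoq, -0.47 for Cebpa, -0.32 for Acsl1 and -0.12 for Nnat, each positive in the other 3 COLD libraries. It was positive for Fabp4 (0.44), Lpl (0.34), Cd36 (0.27) and Pparg (0.19), and a count of Cebpa was found in 31.9% of its cycling against 20.2% of its non-cycling cells and one of Nnat in 14.6% against 6.17%. Car3 was counted in 2 of the 144 cycling cells of the KO pool (1.39% against 2.11%) and Adipoq in 8 (5.56% against 3.62%). The KO values of Car3 and Adipoq thus rest on few cells of 1 library.

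Among regulators of fat cell differentiation, Cebpa rose by 0.74 (0.32 depth matched), losing its call within ASC1-type cells (0.33) and without C57 COLD replicate 2 (0.58), and Cebpd, an early factor of the cascade, fell (-1.90, -1.27 depth matched), while Cebpb was at 0.02. Pparg, the master regulator, was 0.38 in the whole comparison, -0.12 within ASC1-type cells and -0.28 depth matched (adjusted p = 0.0149 by edgeR), so its direction turned with the comparison. The secreted adipokine gene Adipoq was counted in 26.7%, 14.3%, 7.94% and 5.56% of cycling cells and in 5.53%, 3.64%, 5.71% and 3.62% of non-cycling cells, the widest gap being in C57 COLD replicate 1. Ucp1, the uncoupling protein of brown adipocytes, was counted in 0.694% to 4.71% of cycling cells in COLD and in 1.95% to 3.93% of non-cycling cells, and it fell (-1.81). Cells with a sum of Pdgfra, Col1a1 and Dcn under 5 lay outside the gate and are not in the values of the adipocyte genes. Of 21 sterol synthesis genes 7 rose and 4 fell (median 0.15, and 2 and 5 depth matched).

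**Figure D4:**
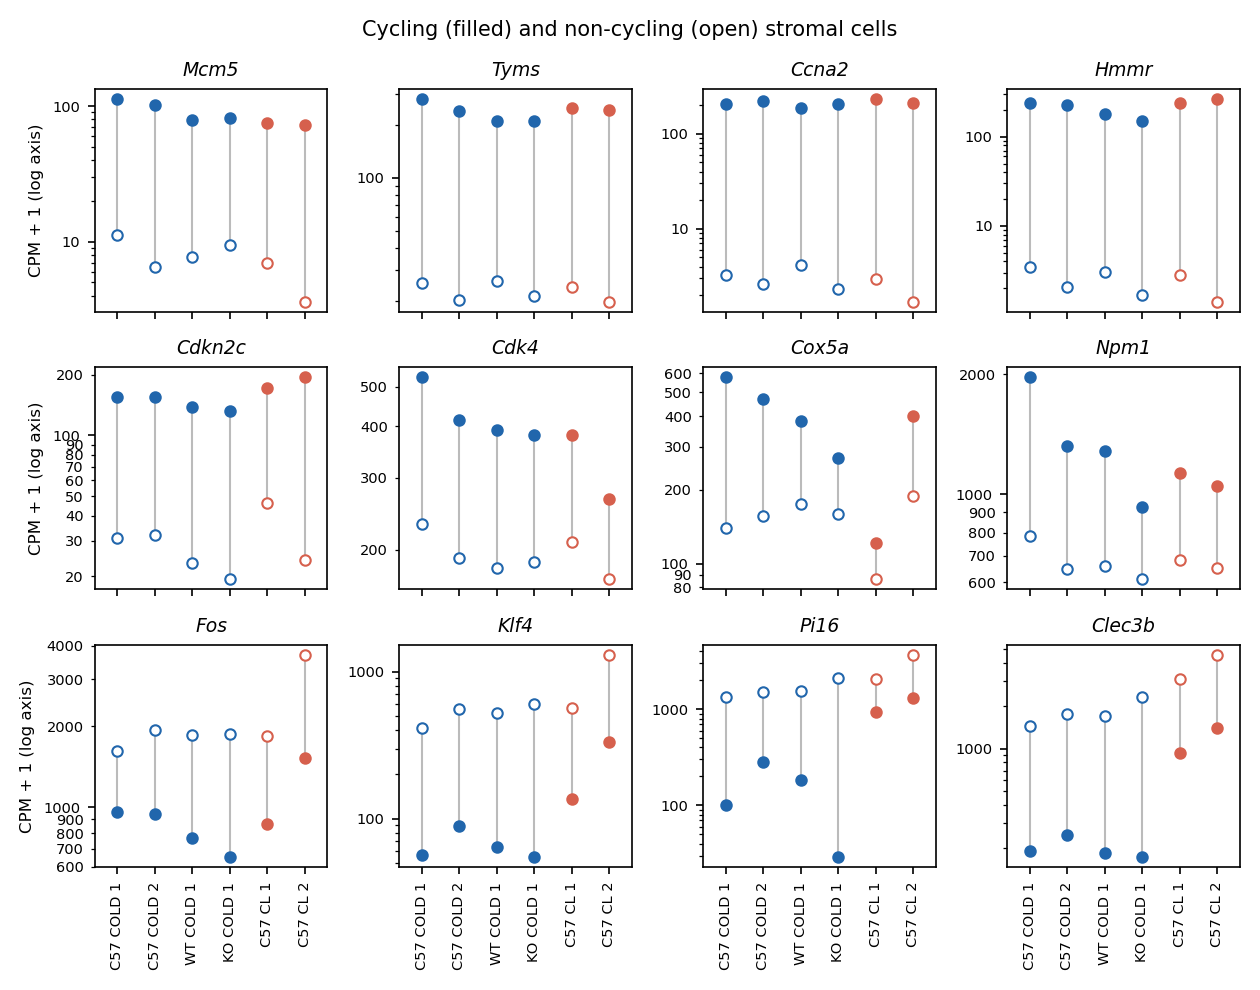
CPM + 1 of selected genes in cycling (filled) and non-cycling (open) stromal cells of each COLD and CL library, on a log axis, 1 point per library and state. Cdkn2c and Cdk4 are higher in cycling cells and Klf4 and Fos lower in every library shown, with Klf4 at 55.7, 88.5, 63.1 and 53.8 CPM in cycling cells of COLD and 414, 557, 523 and 605 in non-cycling cells.

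Genes that mark ASC2 and ASC3 were lower. All 7 ASC2 markers fell (median -2.52), and 4 of them depth matched (median -0.48). Pi16, a secreted peptidase inhibitor, was at 100.5, 282, 184 and 27.9 CPM in cycling and 1345, 1512, 1551 and 2131 in non-cycling cells (-3.56 ± 0.44, adjusted p = 9.20e-05 by edgeR), -0.95 depth matched and -0.96 within ASC1-type cells. Dpp4, a surface peptidase, had -2.77, but -0.41 depth matched, where it did not pass (adjusted p = 0.0728 by edgeR). All 5 ASC3 markers fell (median -1.73, and 3 of them depth matched), and of 6 ASC1 markers 2 fell and none rose (median -0.23, and -0.63 with 5 lower within ASC1-type cells). Of 8 common stromal markers, which include genes used above to check the label, 5 fell (Cd34, Ly6a, Cd81, Cd9 and Ly6c1) and none rose (median -0.72, and -0.46 with 6 lower depth matched). Cd34 had -1.95 (-0.44 depth matched). The ASC2 and ASC3 differences move with the subtype makeup given above.

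Falls that were smaller depth matched but still passed included Inmt, an amine methyltransferase, at 19.4, 11.6, 5.78 and 2.04 CPM against 206, 353, 322 and 351 (-4.71 ± 0.35, adjusted p = 1.83e-06 by edgeR, -2.13 depth matched). Clec3b (tetranectin) was at 188, 245, 184 and 172 CPM against 1442, 1763, 1682 and 2286 (-3.10 ± 0.15, -1.27 depth matched, -2.52 within ASC1-type cells). The IGF-binding protein genes Igfbp3 and Igfbp6 had -3.34 and -3.19 (-1.33 and -1.18 depth matched). Pcolce2, an enhancer of procollagen processing, Procr, the protein C receptor, Scara5, a ferritin receptor, and Fbln1, a matrix glycoprotein, completed, with Klf4 and Pi16, the 10 largest falls among genes with a mean of at least 50 CPM, at -3.23, -3.04, -2.95 and -2.93. Depth matched these 4 had -0.80, -1.32, -1.07 and -0.94.

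Matrix genes fell more often than they rose, with 12 of 30 lower and 2 higher (median -0.22), and 18 lower and none higher depth matched. Col14a1, a fibril-associated collagen, had -2.67 (-0.70 depth matched), Eln (elastin) -2.07, Timp3 -1.40 and the gelatinase gene Mmp2 -1.22 (-0.83 depth matched). Fn1 (fibronectin) had -1.38, -0.29 depth matched and -0.03 within ASC1-type cells, where it did not pass. The 2 that rose, Timp1 and Tnc (tenascin C), had 1.04 and 1.17, but -0.03 and 0.05 against depth-matched cells. The fibrillar collagens Col1a2 (-0.33) and Col3a1 (-0.30) did not pass.

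Of the signalling and immune genes that passed, more were lower than higher. Of 20 growth factor and receptor genes tested 9 fell and 1 rose (median -0.26), with Tgfbr2 at -1.54 (-0.38 depth matched), Fgfr1 at -0.71 (-0.08 depth matched, where it did not pass), Egfr at -0.64 and Pdgfrb, which did not pass, at 0.25. Of 20 interferon response genes 6 fell and 2 rose (median -0.20, and 12 and none depth matched), with Ifit1 at -0.91 and Ifit3 at -0.73. Ifit3 was at 129, 189.8, 108 and 406 CPM against 328, 409, 148 and 494, lower in cycling cells of each library and nearest in the KO pool. Of 18 chemokines and cytokines 7 fell and 2 rose (13 and none depth matched). Cxcl13, a B cell attractant, fell (-2.44, -0.89 depth matched), as did Il33 (-1.04, and -0.28 within ASC1-type cells, where it did not pass) and Cxcl12 (-0.82). Ccl2, a monocyte attractant, was at 1496, 1082, 2492 and 3137 CPM against 1144, 597, 1295 and 1627 (0.85), but at -0.07 against depth-matched cells.

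Immediate early and stress genes, which tissue dissociation also raises, were lower in cycling cells. Of 12, 11 fell and none rose (median -1.23, -0.60 depth matched and -0.82 within ASC1-type cells). Fos, a subunit of AP-1, was at 958, 942, 768 and 651 CPM in cycling and 1612, 1939, 1849 and 1876 in non-cycling cells, without overlap (-1.08 ± 0.13, adjusted p = 6.30e-05 by edgeR). Dusp1, a phosphatase of MAP kinases, had -1.80 (-1.13 depth matched), Junb -1.58, Atf3 -1.56 and Jun -0.64.

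The comparison of cycling with non-cycling cells in the 2 CL libraries found 2910 of 12851 genes changed (22.6%), 1587 higher (12.3%) and 1323 lower (10.3%). It came from a joint fit of the C57 COLD and CL libraries, with a separate effect of cycling for each treatment. Its filter and its estimate of spread therefore rest on both treatments. Depth matched, 1397 of 11078 genes changed, 825 higher and 572 lower. These libraries held 305 cycling cells, 61 of them in replicate 2, so the number of calls is not comparable with that in COLD. Of the quiescence list 2 rose and 10 fell, again Cdkn2c and Cdkn2d against the rest. Cdkn2c was at 170.0 and 194 CPM in cycling and 45.1 and 23.2 in non-cycling cells of CL replicates 1 and 2, and Cdkn1c at 103 and 146 against 282 and 275. Ribosome biogenesis (12 of 18 higher, none lower, median 0.70), glycolysis (8 of 14 and none, 0.72) and oxidative phosphorylation (9 of 20 and none, 0.43) had more genes higher than lower. Depth matched, glycolysis had 1 higher and 1 lower (median 0.15), oxidative phosphorylation 1 and 2 (0.01) and ribosome biogenesis 6 and none (0.70). The adipocyte list had 7 higher and 9 lower (median -0.25), the matrix list 2 higher and 22 lower of 30 (-0.76), and the immediate early list 11 lower of 12 (-1.19). Depth matched these were 2 and 11 (-0.49), 2 and 17 (-0.62) and 10 lower (-0.80). The median of all genes was -0.07, -0.07 with RLE factors on the same genes, and 0.25 with DESeq2, which tested 20457 genes. Among genes with a mean of at least 50 CPM and the same direction in both libraries, the largest falls were Inmt (-3.99) and Igfbp3 (-3.11). Their log2 differences in replicates 1 and 2 were -2.16 and -7.40 for Inmt and -2.32 and -4.13 for Igfbp3. Both were also among the 10 largest falls in COLD at a mean of at least 50 CPM. Among genes below that level, the globin genes of red blood cells Hbb-bs (-7.00), Hba-a1 (-4.57) and Hbb-bt (-3.31) also passed as lower, as did Hba-a2, whose rounded counts in cycling cells were 0 in both libraries, so that no fold is given. Hbb-bs was at 0 in cycling cells of replicate 1 and Hba-a1 in those of replicate 2, and Hbb-bt was higher in cycling cells of replicate 2 (a log2 difference of 0.71).

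Whether the difference between cycling and non-cycling cells itself depended on treatment was tested in the C57 libraries as an interaction. It did for 139 of 12851 genes (1.08%), 21 more positive in COLD (0.163%) and 118 more negative (0.918%), and in 15 genes when depth matched. Of these 15, 12 were more positive in COLD, among them the 4 globin genes Hbb-bs, Hbb-bt, Hba-a1 and Hba-a2. Their summed level in cycling against non-cycling cells was 2.30 against 211 and 3.17 against 7.97 CPM in CL and 76.6 against 107 and 1.18 against 3.62 CPM in COLD, and the part of red cell RNA was not tested. For 42.6% of all genes the effects in the COLD libraries did not overlap those in the CL libraries. All 7 ASC2 markers were among the 118 (median -1.77), yet none passed depth matched (median 0.17) and the median within ASC1-type cells was -0.93. For Dpp4, cycling cells had 9.36 and 19.1 CPM in COLD against 86.3 and 90.6 in non-cycling cells, and 100.4 and 106 against 152 and 197 in CL. The difference of effects was -2.07 ± 0.27 (adjusted p = 8.23e-04 by edgeR). One member passed in each of the G2/M, oxidative and adipocyte lists, namely Plk1, the mitotic kinase (-2.25), Cox4i1 (1.05) and Acsl1, an acyl-CoA synthetase (1.58), Acsl1 being named after its value was seen. Depth matched they had -1.79, 0.91 and 1.69, and Acsl1 alone of these 3 passed.

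Cycling cells of COLD and CL were then compared directly in C57, 2 libraries each. Of 10561 genes, 254 differed (2.41%), 58 higher (0.549%) and 196 lower in COLD (1.86%), and 46.4% of all genes did not overlap between the COLD and CL libraries. With same-numbered libraries as pairs the count was 611. The subtype makeup also differs in this contrast, so the contrast was repeated within ASC1-type cells, where 103 genes passed.

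Interferon-induced and chemokine genes were among the largest rises. Cxcl9, a T cell attractant induced by interferon γ, was at 605 and 925 CPM in cycling cells of COLD and 98.3 and 146 in CL (2.59 ± 0.36, adjusted p = 0.00606 by edgeR, 2.74 within ASC1-type cells). Ifit3 had 2.53, Ccl5 2.48, Iigp1 2.06, Cxcl10 1.75 and Cxcl16 1.27. By list, 2 of the interferon genes rose and none fell (median 0.98), and 4 chemokines rose and 1, Cxcl2, fell (-1.95). Within ASC1-type cells the 2 interferon genes, Ifit3 and Ifi44, passed again, but of the chemokine list 1, Cxcl9, rose and none fell, with Cxcl10 at 2.01, Cxcl16 at 0.87 and Cxcl2 at -1.56. Ccl5 and Iigp1 did not pass there either (1.87 and 2.03). Cxcl2 was at 28.1 and 18.5 CPM in COLD and 83.0 and 89.7 in CL. Non-cycling cells of the same libraries had 2.67 for Cxcl9 and 2.15 for Ifit3, higher in COLD in both replicates.

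Of 20 growth factor and receptor genes 1 was higher in COLD cycling cells and 2 lower, Pdgfc (-2.37) and Tgfbr2 (-1.81), with a median of -0.01. The one higher was Fgf10, a ligand of adipose progenitors, at 138 and 101 CPM against 28.7 and 18.8 (2.19 ± 0.29, adjusted p = 0.00593 by edgeR). Among lipid genes Scd1, a fatty acid desaturase, had 2.04, Lpl, lipoprotein lipase, 1.71 and Acsl1 1.43. Lpl was at 3716 and 3937 CPM in COLD and 858 and 1345 in CL. Of the adipocyte list these 3 rose and 1, Ucp1, fell (median 0.64). Within ASC1-type cells 1 of the list, Scd1 (2.58), rose and none fell, with Lpl at 1.30 and Acsl1 at 1.01.

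Lower in COLD cycling cells were the Wnt modulators Sfrp2 and Sfrp4, the growth factor Ptn and the matrix genes Fn1, Fbn1 and Col14a1. Sfrp2 was at 31.6 and 34.3 CPM in COLD and 611 and 296 in CL (-3.86 ± 0.37, adjusted p = 0.00214 by edgeR). Sfrp4 had -4.37, Ptn -4.08, Fn1 -2.23, Fbn1 -2.03 and Col14a1 -2.94. Of the 30 matrix genes 4 were lower, 1 was higher, Col4a2 (1.24), and 25 were not called (median -0.10). All 7 ASC2 markers were lower (median -2.74), and 6 of them within ASC1-type cells (median -3.03), with Pi16 at -2.62, which did not pass within ASC1-type cells (adjusted p = 0.659 by edgeR). Cdkn1c had -1.57 (adjusted p = 0.00859 by edgeR), and -0.13 within ASC1-type cells, where it did not pass. The D cyclins missed the threshold, Ccnd2 at 1.18 and Ccnd1 at -1.75 with adjusted p = 0.0537 and 0.0523 by edgeR, and passed it with same-numbered libraries paired (0.00505 and 0.00316).

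**Figure D5:**
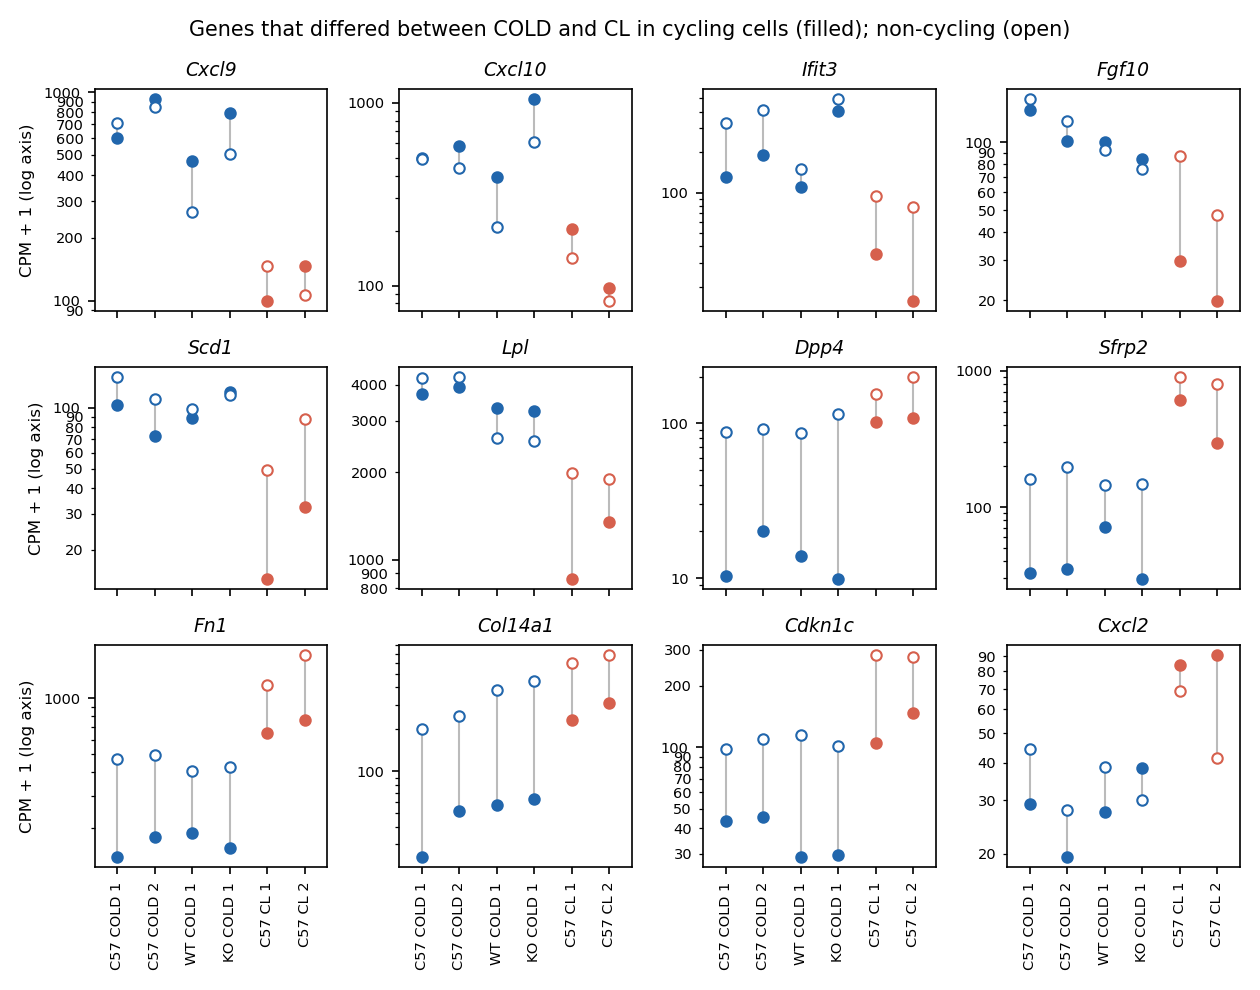
CPM + 1 of genes that differed between cycling stromal cells of C57 COLD and C57 CL, in cycling (filled) and non-cycling (open) cells of the 4 COLD (blue) and 2 CL (red) libraries, on log axes that do not start at 0. Cxcl9, Ifit3, Fgf10 and Lpl are higher in cycling cells of each COLD library and Sfrp2, Fn1 and Cxcl2 in those of both CL libraries, and non-cycling cells show Cxcl9 and Sfrp2 in the same order.

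Non-cycling cells gave no calls in the same C57 contrast over 13622 genes (0.00%) by edgeR without pairing. With pairs edgeR called 557 genes, DESeq2 without pairs 406, and 1870 genes had an unadjusted p under 0.05 without pairs. For 8 of the genes above their fold changes had the same sign as in cycling cells, at 1.10 for Fgf10, 0.92 for Scd1, 1.16 for Lpl, -2.23 for Sfrp2, -1.55 for Fn1, -1.49 for Col14a1, -1.40 for Cdkn1c and -0.95 for Dpp4, while Acsl1 was at -0.01. Of these 9 genes, the interaction passed for Acsl1 (1.58), Fgf10 (1.19), Sfrp2 (-1.57), Col14a1 (-1.51) and Dpp4 (-2.07). Depth matched, the interaction was 0.19 for Fgf10, 0.57 for Sfrp2, 0.57 for Col14a1 and 0.40 for Dpp4, and none of the 4 passed, while Acsl1 did (1.69). None of the 35 genes named and called for the interaction kept its call in every setting.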

How the data were processed

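Stromal vascular cells of iBAT were split by magnetic beads into Lin- and Lin+ fractions and profiled with 10x Genomics 3′ kits. The authors counted molecules with Cell Ranger (3.0.1, mm10 per the submitters' processing notes), then removed free RNA with SoupX, taking Fabp4 and Car3 as non-expressed genes. The deposited matrices hold these corrected, estimated counts, of which 97.2% to 99.6% were not whole in Lin- libraries. Doublet removal was not stated and none was done, but the gate removed cells with endothelial or pan-immune counts. The Lin- libraries held 89637 barcodes and 1.30e+07 to 3.76e+07 counts each.

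Counts were summed per library and state, rounded, and fitted with edgeR 4.0.16 quasi-likelihood models (R 4.3.3) with trimmed mean normalization, library as a block for cycling against non-cycling cells, and Benjamini-Hochberg adjustment. DESeq2 1.42.0 was an alternative. A gene was detected in a cell at a count of at least 0.5. Counts were also simulated with the same dispersion for every gene and with 200 changed genes drawn from those above a floor on mean CPM. There the cold fit recovered 100% of 2-fold and 100% of 4-fold changes among 12585 genes tested, with 6.54% of calls false. The fit of the difference recovered 21% and 94% among 12613 genes, and that between COLD and CL cycling cells 52% and 100% among 10336. Recovery for genes at low counts, or at the spread of the real pools, was not tested. Shares were compared with exact permutation tests in scipy 1.17.1. Other settings were another gate, depth matching, thinning, ASC1-type cells only, another scaling, no filter on low counts, and each library left out.

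Genes were named by rule: the 10 largest rises and falls called, in the same direction in every library or without overlap and with a mean of at least 50 CPM, and per list up to 6 called members and its first 3. The cells and lists were chosen with earlier results of these data known. Per the study's methods, same-numbered C57 libraries came from 1 replicate experiment. Their deviations from group means correlated at 0.255 in cycling cells over 4957 genes and 0.538 in non-cycling cells over 5110 genes, so a fit with that block was run beside the unpaired one. Pools were separate, and p-values measure the spread between pools.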

Additional observations from a re-analysis of the deposited data

Results flagged for a closer look

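The effect of cycling, taken as the log2 difference between cycling and non-cycling cells, differed between COLD and CL in the C57 libraries for the following genes by the interaction test (edgeR, adjusted p under 0.05, mean of at least 50 CPM, groups without overlap). It was more positive in COLD for the acute phase gene Saa3 (by 1.27), the growth factor gene Fgf10 (1.19), Dnajc15 (1.13), the acyl-CoA dehydrogenase gene Acadl (1.10), Lypd1 (1.09), the cytochrome c oxidase subunit gene Cox4i1 (1.05), Mcrip2 (1.01) and Hebp1 (0.98). Saa3 was at 519.9 and 813 CPM in cycling and 477 and 493 in non-cycling cells of COLD, and at 795 and 66.7 against 1245 and 204 in CL. It was more negative in COLD for Dmkn (-2.78), the Wnt modulator gene Sfrp4 (-2.30), the mitotic kinase gene Plk1 (-2.25), Dpp4 (-2.07), Efhd1 (-2.04), the chemokine scavenger gene Ackr3 (-1.97), the prostaglandin synthase gene Ptgs2 (-1.95), Cadm3 (-1.94), Sbsn (-1.92) and Pi16 (-1.84). Plk1 was at 100.0 and 116 CPM in cycling cells of COLD and 144 and 117 in CL, against 2.44 and 1.28 and 0.782 and 0.297 in non-cycling cells. The subtype makeup and depth of cycling cells moved with these differences, and none of these 18 genes passed depth matched. Matching also cut the non-cycling cells from 4683 and 3953 to 720 and 377 in C57 COLD. In CL it cut them from 3887 and 5030 to 244 and 61. The part of fewer cells in the lost calls was not tested. Depth matched, Plk1 and Cox4i1 kept their sign, at the values given above. There Ackr3 (0.24), Cadm3 (0.27), Dpp4 (0.40) and Sbsn (0.35) had the opposite sign, as did Pi16 (0.11) within ASC1-type cells.

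Cycling cells also appeared where they were not looked for. In the Lin+ libraries, which were enriched for immune cells, 24 of 387 stromal-gate cells of COLD and CL mice passed the cycle gate, and 0 of 62 at RT. They were 5 of 23 and 3 of 25 in the C57 COLD pools, 3 of 53 and 1 of 30 in the WT and KO COLD pools, and 4 of 14 and 8 of 242 in the CL pools. The RT pools held 23, 27, 6 and 6 such cells (C57 replicates 1 and 2, WT, KO), which allows shares of up to 13.0%, 11.1%, 50% and 50%. These cells are too few to set RT below the other pools. Of 24 groups of 4 libraries searched for a library far from the rest, none had one, where about 1 in 20 would by chance.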

How the results depend on the processing

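The share of cycling cells in COLD against RT kept its direction under every gate, depth and left-out library tried, at differences of 7.27 to 9.70 points with a library left out, where p (0.0571) is the smallest that 3 against 4 allows. Counts of genes past the threshold moved as follows. Depth matching gave 4023 genes in COLD, 1397 in CL and 15 for the difference between them, of which 80.0% (12, with 4 globin genes among them) were higher against 15.1% of the 139 otherwise. The difference also came to 65 with DESeq2 (10.8% higher), 322 without a filter on low counts, and 62 to 277 with a library left out. Within ASC1-type cells it was 108, with 38.9% higher. Cycling cells of COLD and CL differed in 103 genes within ASC1-type cells, 765 without a filter, 611 with a replicate block, and 227 to 392 with a library left out. Non-cycling cells differed in 406 with DESeq2, 1 with library size only, 783 without a filter, 557 with a replicate block, and 0 to 596 with a library left out. In COLD, leaving out the library block gave 4398 genes against 6035 with it. For the C57 shares the replicate block gave paired differences and no p-value, so no call could change there. Phase shares and subtype rate ratios were not tested with pairs. Without a filter the median of all genes in CL was -0.23, and the share of calls that were higher in the direct contrast moved from 22.8% to 40.9% without a filter and 34.2% with the block.

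Some genes changed direction. In COLD, depth matching gave Bst2 -0.18, Ccl2 -0.066, Ccnd2 -0.19, Cdkn1a 0.32, Mbp 0.37 and Pparg -0.28, and restriction to ASC1-type cells gave Bmper -0.22 and Pparg -0.12. For the difference between COLD and CL, depth matching gave Ackr3 0.24, Cadm3 0.27, Cd34 0.13, Cd55 0.27, Col14a1 0.57, Dpp4 0.40, Fbln1 0.31, Ly6c1 0.47, Sbsn 0.35 and Sema3c 0.42, ASC1-type cells gave Pi16 0.11, and Rgs5 lay between -3.04 and 1.85 with a library left out, positive without CL replicate 1. The cause was not tested. Of the genes named and called in COLD, 95 of 135 kept their call in every setting. Between COLD and CL cycling cells 22 of 45 did, and for the difference 0 of 35. In CL 20 of 20 did, but there only the largest rises and falls were checked. List members called in CL, such as Cdkn2c, Cdkn1c and Rgs5, were not checked across settings. The CL count is therefore not comparable with the other counts. With 61 cycling cells in CL replicate 2 and 2 pools per treatment, few cells and libraries limit the CL comparisons.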
